A study of Mus musculus with 6 samples.

Results

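The genes described here code for the proteins of the cytosolic ribosome. They were chosen by name: every mouse gene whose symbol begins with Rpl or Rps and a digit, with Rpsa, Rplp0, Rplp1 and Rplp2 added and with the Rps6k kinases and the pseudogenes marked -ps left out. The rule found 95 genes in the RefSeq gene table, 86 of them had a named probe on the array, and 84 gave a usable signal, out of 10948 genes tested. Of these 84, 76 are the common subunits of the ribosome (46 of the large and 30 of the small subunit). The other 8 carry such a name without being a common subunit: the paralogs Rpl10l, Rpl22l1, Rpl36al, Rpl39l and Rps27l, the transcribed pseudogene Rps4l, the retrogene Rps23rg1, and Rps19bp1, which codes for a binding partner of the subunit Rps19. Rpl3l and Rpl7l1 were not well above background in either group. The 9 genes without a named probe were Rps23, Rps3a2, Rps3a3, Rpl6l, Rpl32l, Rpl32p, Rpl37rt, Rps12l1 and Rps27rt, and they were not analysed here.

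The cells were macrophages grown from the bone marrow of C57BL/6 mice aged 6 to 8 weeks and labelled as polarized to the M2 state. They spent 6 h in complete DMEM, either alone (medium) or with WGP, whole glucan particles made from yeast cell wall. Total RNA was amplified, labelled with Cy3 and read on 1-colour Agilent arrays. Each group had 3 deposited files but only 2 independent arrays, because both replicate 3 files held no hybridization of their own, so n = 2 per group throughout. The labels do not say whether replicates came from separate mice or cultures, so a p-value measures only the spread between these arrays. No agent of polarization is named in them.

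A ribosome is built from ribosomal RNA and about equal molar amounts of each subunit protein, and growing cells spend much of their transcription on it. Messenger RNAs of ribosomal proteins typically begin with a C followed by a run of pyrimidines, the terminal oligopyrimidine (TOP) motif. Through this motif the kinase complex mTORC1 and the RNA-binding protein Larp1 adjust their translation and stability, often with little change in transcription. Macrophages that meet a microbial particle rebuild their transcript pool within hours, and the ribosomal protein transcripts, among the most abundant in the cell, form a large share of it.

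The sequences around annotated start sites are shown for members whose array signals are described below, so that such a run can be looked for. Each line gives 30 bases before and 30 from the start, 5′ to 3′ on the gene's strand, from the RefSeq promoter table of build GRCm38.p6. Capitals mark the longest run of a C and at least 4 further pyrimidines that begins within 10 bases of the start. Rpl28 (chr7:4792935-4792994, plus strand), Rps9 (chr7:3704011-3704070, plus), Rps6 (chr4:86857338-86857397, minus) and Rpl26 (chr11:68901536-68901595, plus) had lower signals with WGP. Rpl35 (chr2:39005102-39005161, minus), Rpl39l (chr16:10170198-10170257, plus) and Rps27l (chr9:66946056-66946115, plus, the first of its 2 entries) had higher ones.
Rpl28: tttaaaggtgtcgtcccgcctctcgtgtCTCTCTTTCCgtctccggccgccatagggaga
Rps9: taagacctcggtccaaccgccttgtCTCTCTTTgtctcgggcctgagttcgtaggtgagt
Rps6: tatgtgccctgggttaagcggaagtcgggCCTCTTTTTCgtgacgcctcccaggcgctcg
Rpl26: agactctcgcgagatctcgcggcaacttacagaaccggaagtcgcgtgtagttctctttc
Rpl35: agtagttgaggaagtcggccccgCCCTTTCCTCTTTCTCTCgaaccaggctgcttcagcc
Rpl39l: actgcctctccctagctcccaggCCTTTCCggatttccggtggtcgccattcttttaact
Rps27l: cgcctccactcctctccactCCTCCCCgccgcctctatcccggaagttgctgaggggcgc
The run was 10 bases long in Rpl28 and Rps6, 8 in Rps9 and 18 in Rpl35, whose signal rose. It covered the annotated start in Rpl28, Rps6, Rps9 and Rpl35 and in all of these but Rps9 a C with at least 4 further pyrimidines stood at the start itself. In Rpl39l and Rps27l the run ended before the start, and Rpl26 had none near it.

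Across the common subunits, 56 had at least 1 entry in the promoter table. A C followed by at least 4 pyrimidines stood exactly at the annotated start in 13 of them (23.2%), against 3.01% of 27025 genes in the table. Within 10 bases of the start it was found in 33 (58.9%), against 34.4% of all genes. Of these 33 genes 9 fell with WGP (median change -0.21), and of the 23 without a run near the start 2 fell (median -0.15). With the run exactly at the start the medians were ordered the other way: 4 of 13 fell (median -0.10), against 7 of the other 43 (median -0.19). For comparison, 17.4% of all genes tested fell, and none of these splits was tested. The letters CCGGAAG, bound by factors of the ETS family, occurred in the 300-base window (250 before and 50 from the start, either strand) of 24 common subunits (42.9%), against 9.93% of all genes. Of those 24, 7 fell, and of the other 32, 4 fell. The letters AAGATGGC, read by YY1, were present in 5 (8.93%, against 3.19% of all genes) and the E-box CACGTG, read by Myc and its partners, in 6 of 56, against 8.09%. Of these 5 and 6 genes 0 were called lower. The ETS letters overlapped the pyrimidine run in 1 common subunit and shared a window with the YY1 letters in 0. These were 5 patterns in all, the runs read on the gene's strand and the motifs on both strands, and a match is a description of letters, not a bound site.

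Ribosomal protein transcripts moved little in a comparison where many genes moved much, and under the scaling used here most lay below 0. After 6 h with WGP, 19 of the 84 members fell, 5 rose and 60 were not called, at an adjusted p under 0.05 over all genes tested. Of all 10948 genes 17.4% fell and 23.2% rose, 40.6% called in all, so the members' 22.6% lower lay near the background share and their 5.95% higher below it. The median change of the members was -0.19 on the log2 scale, against 0.03 for all genes, and 65 of 84 lay below 0. Both WGP arrays were below both medium arrays for 50 members (59.5%, against 34.4% of all genes) and above them for 12 (14.3%, against 40.7%). The interquartile range of the members was 0.35 log2 units, against 0.82 for all genes. A change beyond 1 log2 unit was seen in 1 member (1.19%), against 16.2% of all genes. Whether fewer cells or less RNA per cell lay behind a lower signal cannot be told apart in bulk RNA. Across the 84 members the changes on the 2 slides, each holding 1 medium and 1 WGP array, ranked alike (Spearman's rho 0.81), as they did over all 10948 genes (0.83); the points of a slide share 2 arrays. The median change was -0.21 on slide 1 and -0.17 on slide 2, and 10 members had opposite signs on the slides.

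**Figure D1:**
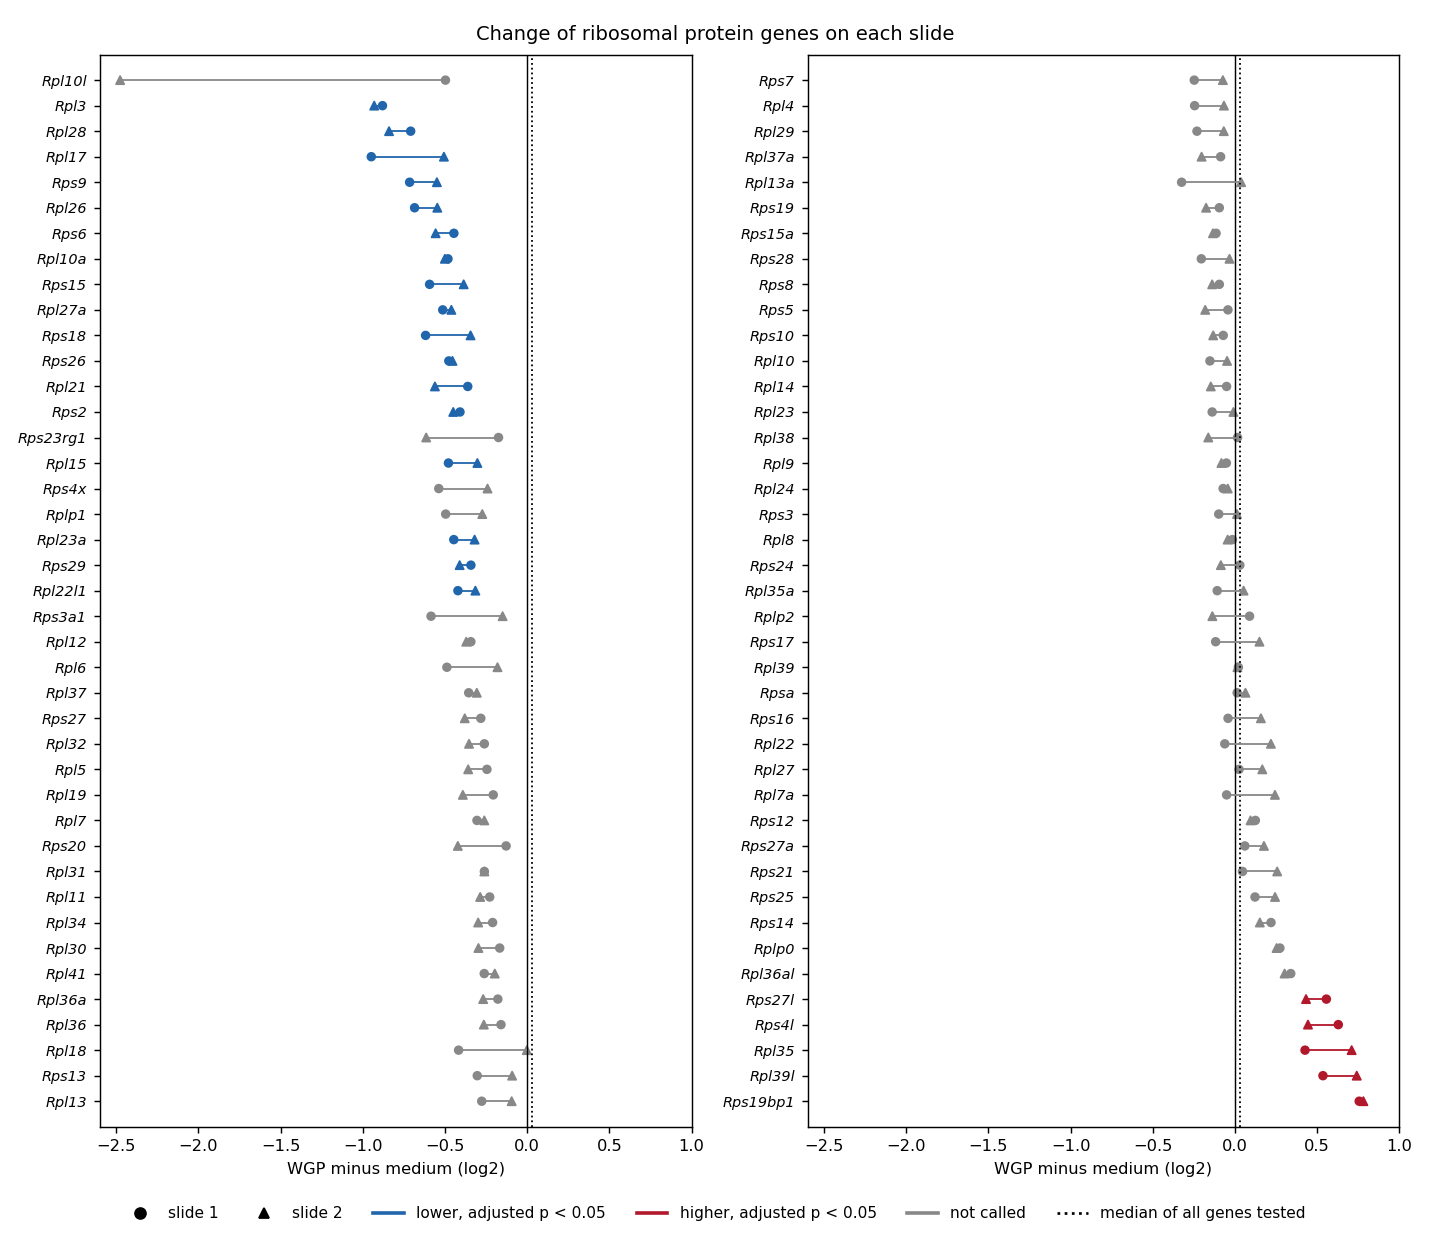
WGP minus medium (log2) of 82 of the 84 ribosomal protein genes on slide 1 (circle) and slide 2 (triangle), ordered by mean change, with colour for the call at an adjusted p under 0.05 and a dotted line at the median of all genes tested. The 17 called falls plotted crowd between -0.91 and -0.37, the 5 called rises lie between 0.49 and 0.77, and Rpl10l stands apart with slide values of -0.50 and -2.48.

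How many members counted as lower depended on the scaling of the arrays and on each single array. With the arrays scaled to their median in place of their 75th percentile, the median of all genes moved to 0.19, the members' median to -0.03 with 43 of 84 below 0, and 5 members fell while 7 rose; called genes across the array were then 72.7% higher, against 57.2% in the comparison above. With scaling to 7 spike-in controls, RNAs added in known amounts, the median of all genes was 0.21, that of the members -0.01 with 43 of 84 below 0, 6 members fell, 9 rose, and 73.7% of called genes were higher. With a quantile or cyclic loess normalization 24 and 29 members fell, and with normexp background correction 46. The distance between the medians of members and of all genes was -0.22 under the 75th percentile, the median and the spike-ins. These 3 scalings each subtract 1 constant per array, so the distance could not differ among them. Over all 17 alternatives the distance lay between -0.42 and -0.17. Without medium replicate 1 the members that fell were 6 in number, without medium replicate 2 they were 2, without WGP replicate 1 they were 3, and without WGP replicate 2 it was 1. With the replicate number as a block 10 members fell. Fitting both replicate 3 files as samples gave 39.

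**Figure D2:**
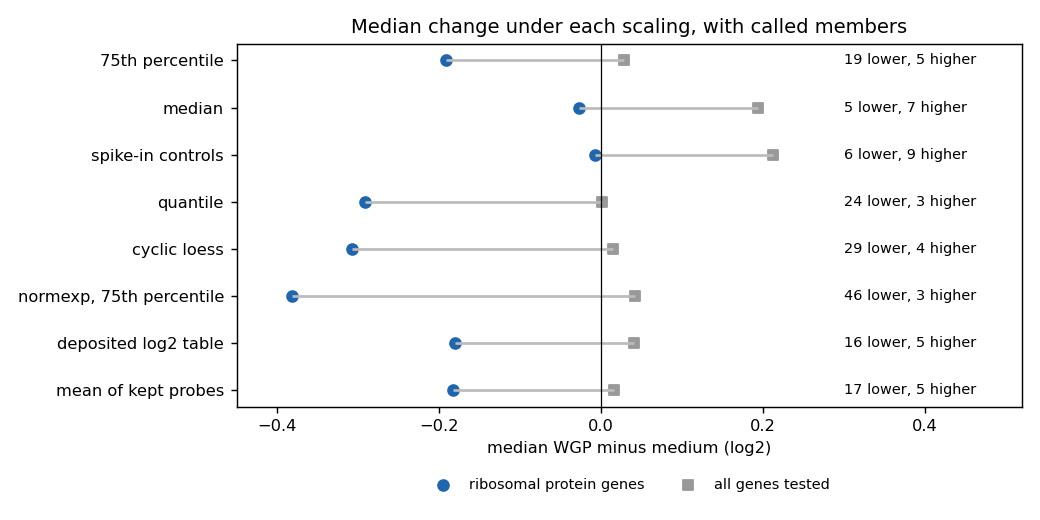
Median WGP minus medium (log2) of the 84 members (circles) and of all genes tested (squares) under 8 ways of processing, with the number of members called. The members' median lay below that of all genes in each of the 8, while the number called lower ran from 5 to 46. The median and spike-in scalings shift all genes alike, so they could not change the distance between the medians.

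The large falls were led by Rpl3, a core protein of the large subunit that reaches towards the peptidyl transferase centre. A level below is a probe's log2 processed signal after each array's own 75th percentile was subtracted, and levels are not comparable between genes because each probe has its own brightness. On this scale Rpl3 stood at 5.69 and 5.68 on the medium arrays and at 4.81 and 4.75 on the WGP arrays. It fell by 0.91 ± 0.09 (SE, n = 2 per group), 1.87-fold, with an adjusted p of 0.0053. This was the largest fall among called members, it was below medium on both slides, and it was called under all 17 alternatives, with changes between -1.07 and -0.72 and adjusted p between 1.15e-05 and 0.04998. Rpl3 has 1 kept probe, so no other probe checks it.

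Rpl28 and Rpl17 belong to the large subunit as well. Rpl28 was at 6.18 and 6.21 in medium and at 5.47 and 5.37 with WGP, a fall of 0.77 ± 0.10 (adjusted p 0.0083). Its groups did not overlap, and it has 1 kept probe. Rpl17, which lines the tunnel through which the new protein leaves, went from 6.39 and 6.06 to 5.44 and 5.55, a fall of 0.73 ± 0.15 (adjusted p 0.026). The medium arrays of Rpl17 differed by more than its WGP arrays did. Its 6 other kept probes disagreed with one another: their changes ran from -0.71 to 0.18, and 2 of the 6 were called lower. The mean of all 7 probes gave -0.33 with an adjusted p of 0.167, which is not called.

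Rpl26, near the mouth of the same tunnel, and Rpl10a, the protein of the mobile L1 stalk, were measured alike by several probes. For Rpl26 the levels were 7.0 and 6.92 in medium and 6.32 and 6.37 with WGP, a fall of 0.62 ± 0.10 (adjusted p 0.013). Its other probes gave -0.63 and -0.74, both called lower in the fit over 18443 probes. For Rpl10a they were 8.68 and 8.72, then 8.2 and 8.22, a fall of 0.49 ± 0.09 (adjusted p 0.020), and its other probe gave -0.48, called lower. Of 17 alternatives 5 ended the call of Rpl26 and 7 that of Rpl10a. The groups of both genes stood apart by more than the arrays within a group.

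In the small subunit the leading falls were Rps9, which sits where messenger RNA enters, and Rps6, the substrate from which the S6 kinases take their name. Rps9 stood at 8.13 and 8.01 in medium and at 7.41 and 7.46 with WGP and fell by 0.63 ± 0.10 (adjusted p 0.014). Rps6 stood at 5.91 and 6.09, then at 5.46 and 5.53, and fell by 0.50 ± 0.11 (adjusted p 0.031). Both genes were lower on both slides, and both carry the pyrimidine run shown above. A second probe of Rps6 also fell (-0.63), while its dimmest gave -0.06, with slides of opposite sign. The adjusted p of Rps6 lay between 0.00057 and 0.163 over the alternatives, and 6 of 17 ended its call.

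The remaining called falls were smaller, between -0.49 and -0.37, and included Rps15, Rps18, Rps26, Rps2 and Rps29 in the small subunit, Rpl27a, Rpl21, Rpl15 and Rpl23a in the large, and the paralog Rpl22l1. Other kept probes of Rpl21, Rps2 and Rpl15 went the other way (0.28, 0.11 and 0.15, none called). Those of Rps15, Rps18, Rps29, Rpl27a and Rpl23a lay below 0. In the fit over all probes the brightest probes of Rpl15, Rpl23a, Rps29 and Rpl22l1 were not called (adjusted p between 0.056 and 0.063). Of the 46 large-subunit members 10 fell (21.7%) and 1 rose (2.17%), with a median of -0.23. Of the 30 small-subunit members 8 fell (26.7%) and 0 rose, with a median of -0.13. Over all genes tested 17.4% fell and 23.2% rose. In 4 small-subunit members (13.3%, against 40.7% of all genes) both WGP arrays lay above both medium arrays, though the fit called none of them. Rps14, a subunit of the platform, was among them (10.38 and 10.31, then 10.59 and 10.46, change 0.18, adjusted p 0.226). The difference between the 2 subunits was not tested.

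**Figure D3:**
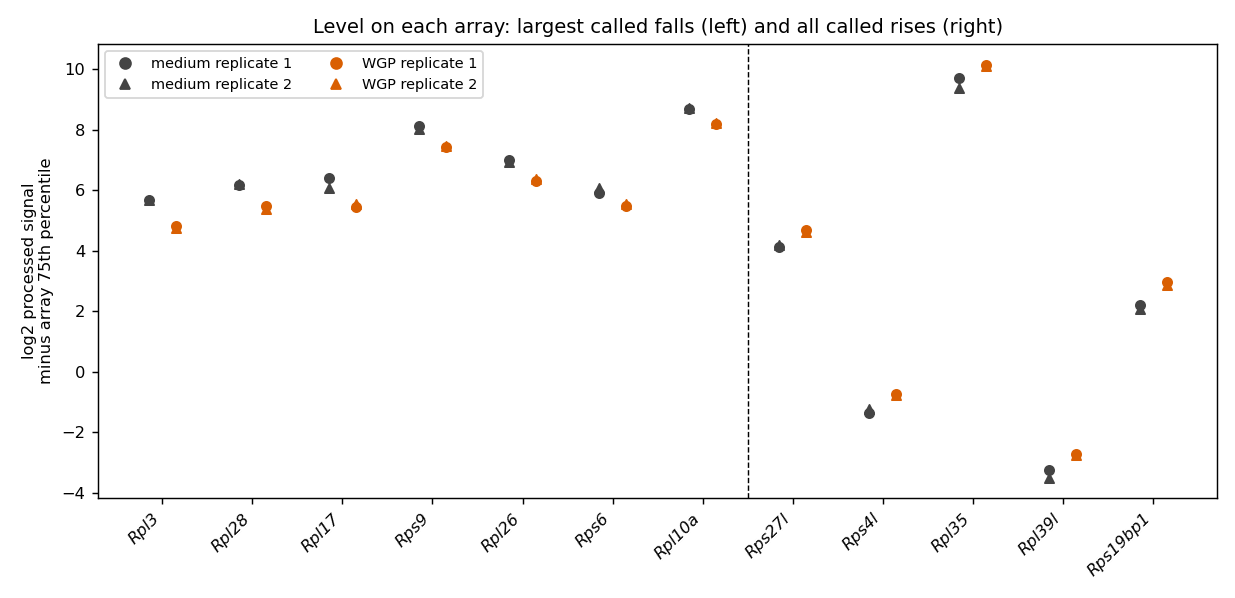
Level (log2 processed signal, scaled to each array's 75th percentile) on each of the 4 arrays for 7 of the largest called falls, left of the dashed line, and the 5 called rises, right of it; circles are replicate 1 and triangles replicate 2, grey medium and orange WGP. In none of the 12 genes do the WGP arrays overlap the medium arrays; levels should not be compared between genes.

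Groups of proteins that work at one site of the ribosome are described next. These sites were listed after the values had been seen and serve as description. In the stalk that recruits the elongation factors, Rplp1 stood at 7.66 and 7.54 in medium and at 7.16 and 7.27 with WGP (change -0.38, adjusted p 0.0503, just outside the threshold). Rplp0, the anchor of the stalk, stood at 8.78 and 8.64, then at 9.06 and 8.89 (change 0.26, adjusted p 0.146). Rplp2 read 8.91 and 8.75, then 9.0 and 8.62 (change -0.02, adjusted p 0.915), and Rpl12 at the stalk base had a change of -0.36 (adjusted p 0.055). None of the 4 was called, and WGP arrays of Rplp2 spanned its medium arrays. Rpl5 and Rpl11, which bind the 5S ribosomal RNA and, when free, the p53 ligase Mdm2, had changes of -0.30 (adjusted p 0.082) and -0.26 (adjusted p 0.108), both with WGP arrays below medium arrays.

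Around the exit tunnel 3 of 9 members fell (Rpl17, Rpl26 and Rpl23a) and 1 rose, where 17.4% of all genes fell and 23.2% rose. The one that rose was Rpl35, which stands at the tunnel mouth beside Rpl23a, where chaperones and the signal recognition particle dock. Rpl35 was at 9.72 and 9.38 in medium and at 10.15 and 10.09 with WGP, a rise of 0.57 ± 0.15 (1.48-fold, adjusted p 0.046). It was the only common subunit of the 76 called higher. Its medium arrays lay further apart than its WGP arrays, and 7 of 17 alternatives ended the call. Among these, the change was 0.40 (adjusted p 0.119) when medium replicate 2 was left out, 0.54 (adjusted p 0.165) for WGP replicate 1 and 0.60 (adjusted p 0.155) for WGP replicate 2. Rpl23a, its neighbour, went from 5.86 and 5.76 to 5.41 and 5.44 and fell by 0.38 ± 0.10 (adjusted p 0.042). Rpsa, the small-subunit protein also known as the laminin receptor, read 8.49 and 8.33, then 8.51 and 8.39 (change 0.04, adjusted p 0.809), with overlapping groups. Its other probes differed: one went from 8.19 and 8.14 to 7.73 and 7.74 and was called lower (-0.42, adjusted p 0.040), and the remaining ones gave -0.49 (adjusted p 0.091) and 0.45 (adjusted p 0.341). With normexp background correction Rpsa instead gave -0.67 (adjusted p 0.000795). The brightest probe was chosen anew there, so it may be a different probe.

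Of the paralogs and other genes outside the common set, 4 of 8 rose and 1 fell, with a median of 0.41. Of all genes tested 23.2% rose and 17.4% fell. The 4 rises include that of Rpl39l, which passed the filter on dim probes through the WGP group alone. Rps19bp1, which binds Rps19 and the deacetylase Sirt1, had the largest called rise. It stood at 2.20 and 2.07 in medium and at 2.95 and 2.86 with WGP, a rise of 0.77 ± 0.11 (1.70-fold, adjusted p 0.0098). Rps19 itself had a change of -0.14 (adjusted p 0.356). Leaving out medium replicate 2, WGP replicate 1 or WGP replicate 2 gave Rps19bp1 an adjusted p between 0.060 and 0.062, and its change there stayed between 0.71 and 0.82.

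Several parent and paralog pairs carried opposite signs, though a difference within a pair was not tested. Rps27l, a paralog induced by p53, stood at 4.13 and 4.2 in medium and at 4.68 and 4.63 with WGP and rose by 0.49 ± 0.10 (adjusted p 0.022). Its parent Rps27 stood at 9.59 and 9.73, then at 9.30 and 9.35 (change -0.33, adjusted p 0.072), below medium on both slides. That was its brightest probe, and another probe of Rps27 was called higher (1.11, adjusted p 0.0497 in the fit over all probes). Rps4l, a transcribed pseudogene, went from -1.37 and -1.22 to -0.74 and -0.78 and rose by 0.54 ± 0.10 (adjusted p 0.022), while Rps4x, the X-linked gene it resembles, had a change of -0.39 (5.94 and 5.76, then 5.40 and 5.52; adjusted p 0.062). Of 17 alternatives 6 ended the call of Rps27l and 6 that of Rps4l. By the brightest probes, the WGP arrays of both pairs lay on opposite sides of the medium arrays in the parent and the paralog. Rpl36al, whose protein is nearly identical to that of Rpl36a, stood at 5.89 and 5.80, then at 6.23 and 6.10 (change 0.32, adjusted p 0.077). Rpl36a stood at 6.60 and 6.48, then at 6.43 and 6.22 (change -0.22, adjusted p 0.217). How far a probe of one copy also binds the other was not tested.

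Rpl39l, a paralog best known from male germ cells, had a dim signal of 9.1 and 6.1 units on the medium arrays and 9.0 and 8.3 on the WGP arrays. On the scaled log2 measure this was -3.24 and -3.49, then -2.71 and -2.75, a rise of 0.64 ± 0.13 (adjusted p 0.023), but only 1 of its 2 medium arrays was well above background. It passed the filter on dim probes through the WGP group alone, the group where it is high, so its rise carries no weight in the count. Of the 82 members well above background on all 4 arrays 4 rose and 22 fell, against 25.9% and 18.6% of genes kept in that way. Its parent Rpl39 read 7.86 and 7.87, then 7.89 on both WGP arrays (change 0.02, adjusted p 0.889). Rpl22l1, whose expression Rpl22 is known to restrain, went from 5.64 and 5.52 to 5.22 and 5.21 and fell by 0.37 ± 0.10 (adjusted p 0.048). Rpl22 read 8.01 and 7.71, then 7.95 and 7.93 (change 0.08, adjusted p 0.675), with WGP inside its medium range by the brightest probe. Its other, dimmer probe went from 0.37 and 0.29 to -0.19 and -0.14 and was called lower (-0.49, adjusted p 0.031). Of all alternatives, 9 of 17 ended the call of Rpl22l1.

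Rpl10l, the autosomal copy that stands in for X-linked Rpl10 in male germ cells, had the largest change of any member and was not called. Its signals were 29.7 and 21.5 units on the medium arrays and 14.5 and 3.2 on the WGP arrays, and the last was not well above background. The change of -1.49 ± 0.74 had an adjusted p of 0.180, with WGP arrays at -2.03 and -4.15 on the scaled log2 measure, against -1.53 and -1.67 in medium. It rested on WGP replicate 2: without WGP replicate 1 the change was -2.55 (adjusted p 0.0096), and the smallest change in any alternative was -0.06. Rpl10 stood at 9.90 and 9.70, then at 9.75 and 9.65 (change -0.10, adjusted p 0.540), and Rpl7, whose paralog Rpl7l1 was not measured above background, at 8.06 and 7.95, then at 7.75 and 7.69 (change -0.28, adjusted p 0.090).

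Other probes of the same genes leaned the same way. Of the 84 members, 50 had at least 2 kept probes, with 84 probes besides the brightest. These had a median change of -0.22, against -0.19 for the brightest probes of the same genes, and 63 of 84 lay below 0. In the fit over 18443 probes 22 of them were called lower and 2 higher, where 15.6% of all probes were lower and 18.6% higher. In 29 of the 50 genes all kept probes had the same sign. Several dimmer probes fell further than the brightest one. Rpl13a, a subunit also known as part of the interferon-induced GAIT complex, had a change of -0.14 by its brightest probe (adjusted p 0.442 in that fit). Its other probes went from 2.65 and 2.61 to 1.65 and 1.43 (-1.09, adjusted p 0.0092) and from 2.80 and 2.90 to 1.82 and 1.91 (-0.98, adjusted p 0.0086). The second probe of Rps18 gave -0.92, against -0.48 for its brightest probe.

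Probes called in opposite directions were found in Rpl23 and Rps27. The brightest probe of Rpl23 had a change of -0.07 and a dim one fell by 0.50 (adjusted p 0.042), while the remaining one went from 6.00 and 5.37 to 6.98 and 7.06 and rose by 1.34 ± 0.24 (adjusted p 0.023). In Rps27, 3 probes had changes of -0.33, -0.42 and -0.80, the last called lower, and the remaining one went from 7.04 and 6.28 to 7.82 and 7.72 and rose by 1.11 ± 0.29 (adjusted p 0.0497). In both rising probes the medium arrays were further apart than the WGP arrays. Pseudogene copies named in the same table numbered 0 for Rpl23 and 2 for Rps27, and which transcript each probe binds was not tested.

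**Figure D4:**
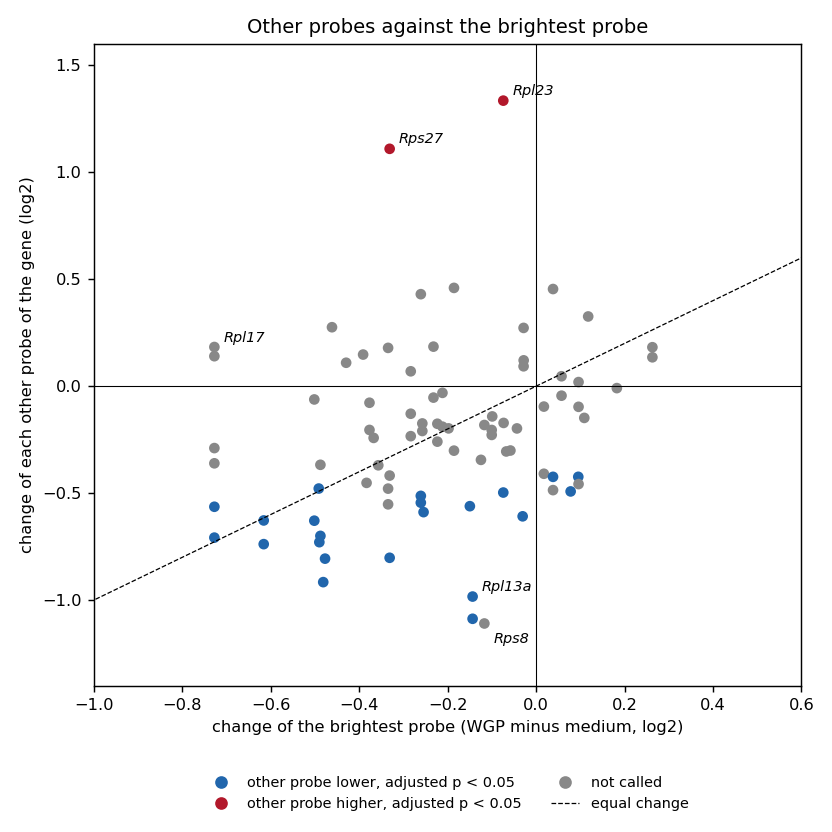
Change (WGP minus medium, log2) of each of the 84 other kept probes against that of the brightest probe of its gene, for 50 members; colour marks calls in the fit over 18443 probes and the dashed line equal change. Most points lie below 0, Rpl13a has dim probes near -1 and Rpl23 and Rps27 have 1 probe each above 1.

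Most called falls among the common subunits came from dimmer probes. Of the 43 with a mean level of 8 or below, 16 fell (37.2%) and 0 rose, with a median of -0.30. Of the 33 above 8, 2 fell (6.06%) and 1 rose (3.03%), with a median of -0.11. Over all genes tested 17.4% fell and 23.2% rose. Rank correlation between mean level and change was 0.36 over the 76 common subunits and 0.19 over all 10948 genes; the points share the 4 arrays, and a probe's level depends on its own brightness as well as on the transcript. No spot was saturated. The part of signal range in these differences was not tested.

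Genes whose products build ribosomes mostly rose. Of 91 measured biogenesis genes 54 rose and 0 fell (median 0.60), against 23.2% and 17.4% of all genes; 10 more listed genes gave no usable signal. Ddx21, a helicase of ribosomal RNA synthesis, rose from -0.89 and -0.82 to 0.77 and 0.81 (1.64 ± 0.10, adjusted p 0.0020). Nol10 and Rrs1, assembly factors of the nucleolus, lay too near background in medium to be measured and were at least 1.54-fold and 1.71-fold higher with WGP (adjusted p 0.025 and 0.0022), as bounded by the dimmest signal well above background; both passed the filter through the WGP group alone. With genes well above background on all 4 arrays only, 53 of the list rose and 0 fell. Leaving out 1 array at a time gave between 15 and 36 genes of the list as higher. The core nucleolar proteins were not uniform: Fbl rose by 0.81 ± 0.09 (adjusted p 0.0066), while Npm1 had a change of -0.02 (adjusted p 0.932).

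Of 31 subunits and factors of RNA polymerases I and III, 8 rose (25.8%) and 4 fell (12.9%), with a median of -0.02. These shares lay near the 23.2% and 17.4% of all genes. Among the risers was Polr1a, the large subunit of polymerase I (0.96 ± 0.11, adjusted p 0.0064). Polr3d was not well above background in medium and at least 1.93-fold higher with WGP (adjusted p 0.049). It passed the filter through the WGP group alone, the group where it is high, so its rise carries no weight in the count. Polr3gl fell by 1.57 ± 0.15 (adjusted p 0.0046). Maf1, the repressor of polymerase III, fell by 0.50 ± 0.10 (adjusted p 0.026) and was named after its value had been seen. Other called factors of this list fell further than Maf1 and are not named here. What these changes mean for the activity of polymerase III was not tested. These lists came from textbook knowledge.

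Among the genes that use ribosomes, 16 of 38 initiation factors rose (42.1%) and 5 fell (13.2%), with a median of 0.37. Over all genes tested these shares were 23.2% and 17.4%. The largest rises were those of the helicase Eif4a1 (1.62 ± 0.12, adjusted p 0.0028), the cap-binding protein Eif4e (1.58 ± 0.19, adjusted p 0.0071) and Eif3j1 (1.04 ± 0.13, adjusted p 0.0074). The largest falls were those of Eif2d (-1.04 ± 0.23, adjusted p 0.031), Eif4b (-0.96 ± 0.13, adjusted p 0.0098) and Eif3f (-0.87 ± 0.12, adjusted p 0.010). Members of the cap-binding group thus stood on both sides. Of 17 elongation and termination factors 5 rose (29.4%) and 2 fell (11.8%), shares near the 23.2% and 17.4% of all genes. Gspt1, the release factor, rose by 1.5 ± 0.09 (adjusted p 0.0021). Eef2, the translocase whose messenger RNA also carries a TOP motif, fell by 0.80 ± 0.10 (adjusted p 0.0083). Its kinase Eef2k was at least 4.73-fold lower with WGP (adjusted p 0.015), where it was not well above background. Eef2k passed the filter through the medium group alone, the group where it is high, so its fall carries no weight in the count.

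**Figure D5:**
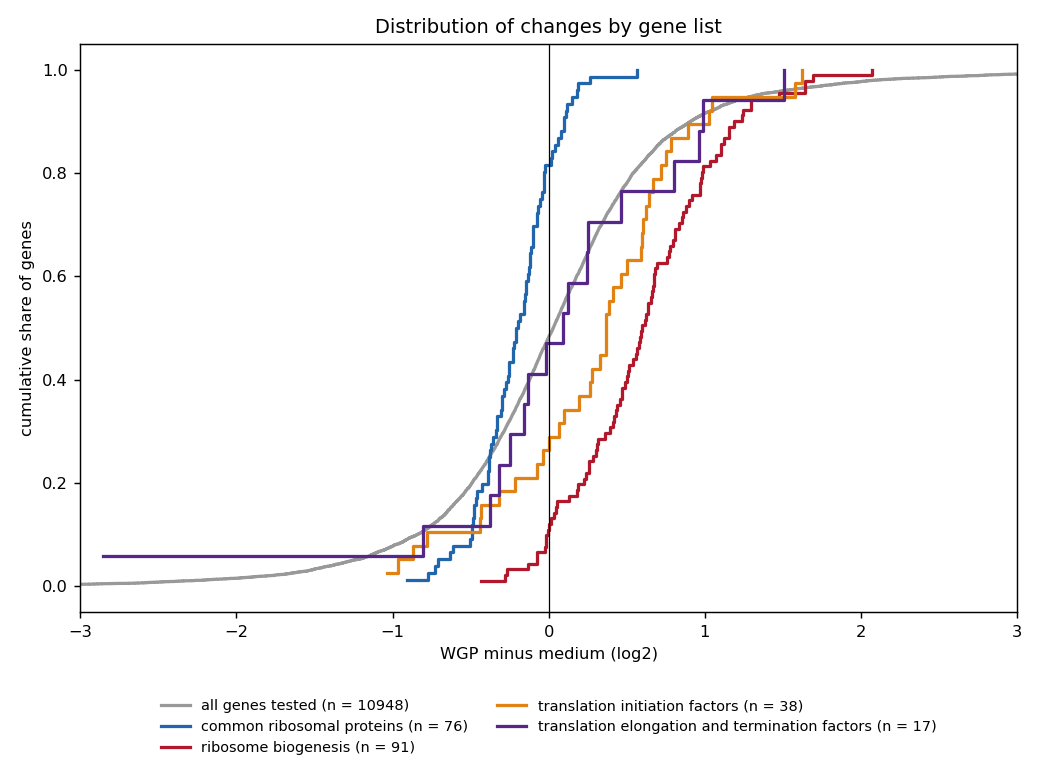
Cumulative share of genes by WGP minus medium (log2) for all genes tested, the 76 common ribosomal proteins and 3 lists of genes that make or use ribosomes. The ribosomal protein curve is the steepest and lies mostly left of 0, with a median of -0.20, while biogenesis (median 0.60) and initiation factors (median 0.37) lie to the right; the horizontal axis leaves out genes beyond 3 log2 units.

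Of 38 genes of the mTORC1 pathway and TOP regulation 11 rose (28.9%) and 8 fell (21.1%), shares near the 23.2% and 17.4% of all genes (median 0.13). Larp1, the binder of the TOP motif, rose from 3.57 and 3.47 to 4.64 and 4.55 (1.07 ± 0.10, adjusted p 0.0047). Rheb, the small GTPase that activates mTORC1, was not well above background in medium and was at least 1.98-fold higher with WGP (adjusted p 0.0071). It passed the filter through the WGP group alone, the group where it is high, so its rise carries no weight in the count. The mTORC1 restrainers Deptor and Sesn1 fell, but not all restrainers in the list did. Ddit4 and Tsc1 had changes of 0.81 (adjusted p 0.065) and 0.22 (adjusted p 0.164), and neither was called. Both were named after their values had been seen. Sesn1 fell by 2.10 ± 0.11 (adjusted p 0.0016). Deptor was at least 6.05-fold lower and not well above background with WGP (adjusted p 0.0033). It passed the filter through the medium group alone, the group where it is high, so its fall carries no weight in the count. Of 9 S6 kinase genes 3 rose (33.3%) and 1 fell (11.1%), against 23.2% and 17.4% of all genes. Their median change was -0.34, and 6 of the 9 lay below 0. Rps6kb1, a kinase of Rps6, rose by 0.42 ± 0.10 (adjusted p 0.038). Of 22 genes of ribosome rescue, recycling and storage 10 rose (45.5%) and 0 fell (median 0.36), against 23.2% and 17.4% of all genes. Among the risers were G3bp1 of stress granules (1.31 ± 0.09, adjusted p 0.0027) and Pelo, which splits stalled ribosomes (1.04 ± 0.12, adjusted p 0.0064). Fau and Rack1, subunits that the naming rule leaves out, had changes of -0.03 (adjusted p 0.845) and -0.28 (adjusted p 0.083), and neither was called.

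On the arrays as a whole, the 75th percentile of processed signal was 85.8 and 68.6 units in medium and 59.2 and 56.1 with WGP, and between 45% and 50.7% of probes were well above background. All 9 measured macrophage markers, Csf1r, Adgre1 and Itgam among them, were well above background on all 4 arrays. Of the alternative activation markers Mrc1 and Clec10a fell, Egr2 rose, and Arg1 and Retnla gave no usable signal under their names. Markers of other cells that moved with WGP were Cd79a and Cd79b of B cells (both of the 2 measured, of 4 listed, lower, Cd79b at least 5.04-fold), Col3a1 of fibroblasts (1 of 4 measured, at least 1.62-fold lower) and Siglech of dendritic cells (1 of 2 measured, higher by 1.08); of 4 neutrophil and 2 T or NK cell markers 0 were called. Cd79b and Col3a1 passed the filter through the medium group alone, the group where they are high, so their falls carry no weight in these counts. The part of these markers in the members' values was not tested.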

How the data were processed

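Total RNA was hybridised to 1-colour Agilent arrays; the submitters' processing notes name Agilent Feature Extraction 10.7.3. The authors deposited spot intensities, background-subtracted and spatially detrended per the file headers. A log2 table deposited by the authors for the series, whose probe centring is not given in the sources used here, served as an alternative.

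Replicate 3 files differed from replicate 1 in median signal at 0 of 44397 spots. WGP replicate 3 (1.3 times WGP replicate 1 within 0.498%) was averaged with WGP replicate 1, and medium replicate 3 (the mean of medium replicates 1 and 2 within 0.695%) was left out. Control spots (1377 per array) and outlier spots (118 to 183) were dropped. Processed signals were put on the log2 scale, each array's 75th percentile was subtracted, and spots of a probe were averaged. Probes were named by RefSeq accession (GRCm38.p6; 26761 of 39429 named) and kept if both arrays of 1 group or more showed them well above background (in at least 0.5 of a probe's spots). The brightest kept probe stood for its gene.

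Groups were compared with limma 3.58.1 (lmFit and eBayes in R 4.3.3; degrees of freedom 2 residual, 2.19 prior), with p-values adjusted by Benjamini-Hochberg over all genes, threshold 0.05; errors are limma's standard errors. The script was tested on simulated data. At-least-folds set the brighter mean against the higher, per array, of the dim probe's signal and the lowest signal well above background. Normexp (offset 50) used median spot and background signals, in place of the mean spot signals first planned. Per the file headers, each of the replicate numbers 1 and 2 had its own slide and scan. Deviations of same-numbered arrays from their group means correlated at 0.14 over the genes tested. Named with array values were the 8 largest called rises and falls, paralog pairs, stalk proteins, Rpsa, Rps6 and Rps19bp1, and up to 3 called genes each way per other list; Rps14, Rps19, Rpl5, Rpl11, Rpl12, Rpl13a, Rpl23, Rpl23a, Fbl, Npm1, Maf1, Rps6kb1 and the gene groups by site were named after seeing their values. Some genes that these rules would name are counted but not reported by name here. Members and lists were chosen with earlier results of these data known. Arrays were few, which limits precision.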

Additional observations from a re-analysis of the deposited data

How the results depend on the processing

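The distance of the members' median below that of all genes kept its direction in the 17 alternatives, while counts of called members did not stay. Under median scaling, spike-in scaling and the replicate block the distance was fixed in advance, because these shift all genes alike or leave each change as it was. Members higher numbered 3 with quantile normalization and with normexp, 0 with no filter on dim probes, 11 with all 6 files as samples, 9 with spike-in scaling, 1 among the common subunits both with the retrogene Rps23rg1 counted in, as first planned, and without it, and 0 to 3 without 1 array. Members lower numbered 5 with median scaling, 29 with cyclic loess, 46 with normexp, 1 of 86 with no filter, 39 with 6 files, 6 with spike-in scaling and 1 to 6 without 1 array. The members' median was -0.0268 with median scaling, -0.31 with cyclic loess, -0.38 with normexp and -0.0077 with spike-in scaling. Genes called across the array numbered 1532 of 20274 with no filter, 7451 with 6 files, and 1708 to 3344 without 1 array, against 4442. Spike-in scaling and the set without Rps23rg1 were chosen after seeing the data. The cause of these shifts was not tested, except that leaving out 1 array leaves fewer samples.

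With the replicate number as a block, paired by slide, 10 members were lower, and all 10 were among the 19; it left the number of rises at 5.

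For 27 named members, 336 of 457 comparisons with an alternative kept direction and call, 70 lost the call, 30 gained one and 21 changed sign. All sign changes were in 5 members not called in the main comparison. Rpl10 gave 0.0647 with median scaling, 0.0018 without medium replicate 1 and 0.0838 with spike-in scaling. Rplp2 gave 0.14 and 0.16 under the same 2 scalings, 0.0387 with 6 files and -0.22 to 0.17 without 1 array. Rpl39 gave -0.0718 with quantile, -0.10 with cyclic loess, -0.20 with normexp and -0.16 with the mean of kept probes. Rpsa gave -0.0767 with cyclic loess, -0.67 with normexp, -0.10 with the mean of probes and -0.0454 to 0.12 without 1 array. Rpl22 gave -0.0390 with cyclic loess, -0.0815 with normexp, -0.21 with the mean of probes and -0.0696 to 0.23 without 1 array. Probes near background, such as those of Rpl10l and Rpl39l, carry the least precise values.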
